A study of Mus musculus with 12 samples.

Results

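Sialyltransferases are enzymes of the Golgi that place sialic acid at the ends of the sugar chains of glycoproteins and glycolipids, and the sialic acid acetylesterase Siae removes O-acetyl groups from sialic acids already in place. The messages of 9 sialyltransferases and of Siae were followed here in B-cell precursors of mice with reduced Pax5, with or without reduced Cd72. Of 19938 genes that the array names through clusters with a single symbol, these are 10, found by their gene symbols in 11 transcript clusters, the probe sets that stand for a transcript. St3gal1 has 2 clusters, and the cluster that stands for it was chosen by its higher mean signal over all arrays, so that mean is a description only. The members were also chosen with earlier results of these data known, so the calls below describe chosen genes.

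Total RNA from pro-B cells purified from bone marrow was hybridised to 12 Affymetrix Mouse Gene 1.0 ST arrays, 4 from Cd72+/-;Pax5+/- mice, 4 from Pax5+/- mice and 4 from WT mice. All animals were 1 month old and kept free of specific pathogens. The titles name the mutant cells preleukemic precursor B-cells, and the WT cells pro-B cells. Cd72+/-;Pax5+/- mice are also called combined heterozygotes here. Every array of both mutant groups thus carries a loss of 1 copy of Pax5, a transcription factor needed for commitment to the B lineage, and none of the groups carries a loss of Cd72, an inhibitory co-receptor of B cells, alone. The sources used here do not give the deleted part of either gene, the strain or the number of animals behind a sample. A p-value thus rests on array-to-array spread alone, part or all of which may be technical, and the number of arrays limits the precision.

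Values are log2 signals, on which a difference of 1 is a 2-fold change, and the levels of different genes are not comparable on this scale. A gene was called higher or lower at a Benjamini-Hochberg adjusted p under 0.05 in a limma fit over 23410 clusters. The comparisons share arrays: both mutants were set against the same WT arrays, and the Pax5+/- arrays also served in the comparison between the mutants. Pax5 averaged 11.2 ± 0.0835 in Cd72+/-;Pax5+/-, 10.97 ± 0.26 in Pax5+/- and 11.57 ± 0.148 in WT, and Cd72 averaged 7.51 ± 0.135, 10.19 ± 0.111 and 8.90 ± 0.51 in the same order (SD, n = 4). Pax5 passed at -0.60 in Pax5+/- against WT (adjusted p = 0.0051) and not at -0.36 in the combined heterozygotes against WT (adjusted p = 0.0781), while Cd72, set against WT, fell by 1.39 in the combined heterozygotes and was higher by 1.29 in Pax5+/- (adjusted p = 0.000492 and adjusted p = 0.000827). For the sex-linked gene Xist, Cd72+/-;Pax5+/- arrays read 11.75 to 11.9, and the Pax5+/- and WT arrays 5.00 to 5.52. For Uty, also sex-linked, they read 4.88 to 5.19, 9.26 to 9.52 in Pax5+/- and 8.85 to 9.74 in WT. A comparison with Cd72+/-;Pax5+/- thus cannot be told apart from one of arrays with high Xist and low Uty against the reverse. In each group the arrays form 2 pairs of closest likeness: replicates 1 and 3 and replicates 2 and 4 in both Pax5+/- and WT, and replicates 1 and 2 and replicates 3 and 4 in Cd72+/-;Pax5+/-. The SD of the differences within such a pair was 0.117 to 0.125 in Cd72+/-;Pax5+/-, against 0.128 to 0.183 between arrays of different pairs, so that the pairs were hardly separated there. It was 0.122 to 0.177 against 0.195 to 0.281 in Pax5+/-, and 0.109 to 0.117 against 0.27 to 0.28 in WT. The labels neither state nor exclude that a pair repeats 1 sample, so calls are also given with the pairs averaged. Averaging leaves 2 values a group. Clusters called then fell from 1749 to 282 in Pax5+/- against WT and from 1821 to 290 in the combined heterozygotes against WT. Between the mutants they fell from 2292 to 420. A call lost on averaging may thus come from the fewer values. Of 12 pro-B and pre-B markers the dimmest was Enpep, at 5.30 to 5.84 over all arrays, and the brightest Igll1 of the surrogate light chain, at 12.49 to 13.33. Of 10 granulocyte and monocyte markers the dimmest was Ly6g, at 4.75 to 5.02, and the brightest Lyz2, at 7.17 to 8.94, and of 7 T-cell markers the dimmest was Cd3g, at 4.99 to 5.27, and the brightest Cd3e, at 6.85 to 7.15. Since levels of different genes are not comparable here, these ranges do not measure purity.

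Sialic acid at the cell surface is read by Siglecs, receptors of which Cd22 is the best known on B cells. St6gal1 makes the linkage that Cd22 binds, and O-acetyl groups on the sialic acid block that binding until Siae removes them. The St3gal enzymes cap galactose on O-glycans, N-glycans and glycolipids, and the St8sia enzymes add sialic acid to sialic acid. In bulk RNA such as this, fewer cells of a type and less RNA per cell cannot be told apart.

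**Figure D1:**
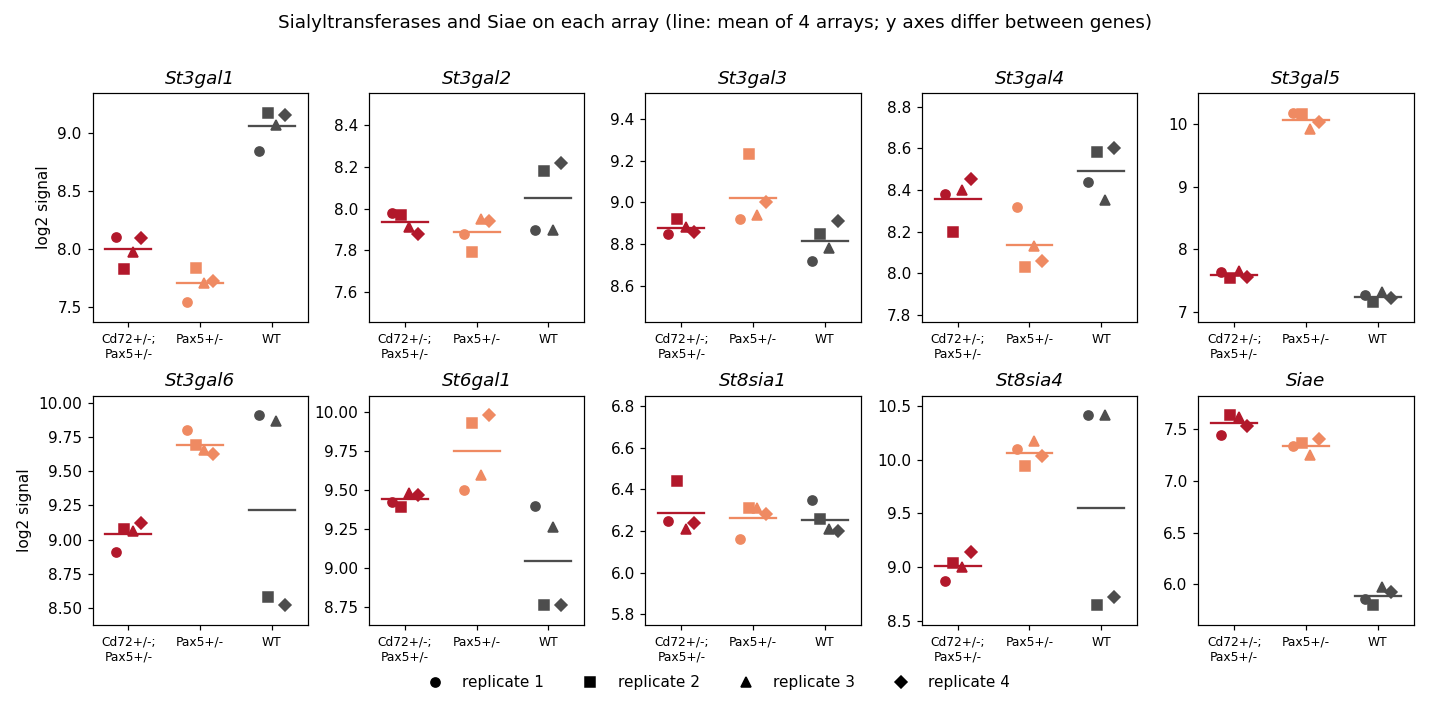
Log2 signal of the 10 genes on each array, with Cd72+/-;Pax5+/- at the left, Pax5+/- in the middle and WT at the right of each panel; symbols give the replicate number, horizontal lines the mean of 4 arrays, and the y axes differ between genes. St3gal5 stands apart in Pax5+/-, Siae is higher and St3gal1 lower in both mutant groups than in WT, and the WT arrays of St8sia4 and St3gal6 fall into 2 pairs.

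In Pax5+/- against WT, 5 of the 10 genes passed the test, with St3gal5, St6gal1 and Siae higher and St3gal1 and St3gal4 lower. Over all clusters 7.47% were called in that comparison, 4.28% higher and 3.2% lower. The Pax5+/- and WT arrays did not overlap for 6 of the 10, St3gal3 and the 5 called genes, beside 10.7% of all clusters, 5.84% higher and 4.87% lower. In Cd72+/-;Pax5+/- against WT, St3gal5 and Siae were higher and St3gal1 was lower, 3 of 10 beside 7.78% of all clusters, 4.12% higher and 3.66% lower. The same 3 genes were those without overlap, beside 14.8% of all clusters, 7.61% higher and 7.23% lower. In Cd72+/-;Pax5+/- against Pax5+/-, Siae was higher and St3gal5 lower, 2 of 10 beside 9.79% of all clusters, 4.44% higher and 5.35% lower. There 5 genes did not overlap, Siae upwards and St3gal5, St3gal6, St6gal1 and St8sia4 downwards, beside 18.5% of all clusters, 9.59% higher and 8.91% lower. By the study's rule, which asks for more than a 2-fold difference and an unadjusted p below 0.05, 3, 2 and 2 of the 10 passed in these comparisons, beside 0.957%, 0.914% and 1.2% of all clusters. The median absolute log2 difference over the 10 genes was 0.49, 0.27 and 0.26 in these comparisons, beside 0.067, 0.07 and 0.075 over all clusters. These backgrounds take in many dim clusters, while 9 of the 10 genes passed a filter on dim clusters. Of the 12088 clusters that passed it, 1537, 1601 and 2015 were called in a fit of these alone, beside 5, 3 and 3 of those 9 genes. The 5 genes called in none were St3gal2, St3gal3, St3gal6, St8sia1 and St8sia4. With the closest pairs of arrays averaged, St3gal1, St3gal5 and Siae kept their calls in Pax5+/- against WT, St3gal1 and Siae in Cd72+/-;Pax5+/- against WT, and St3gal5 in Cd72+/-;Pax5+/- against Pax5+/-.

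**Figure D2:**
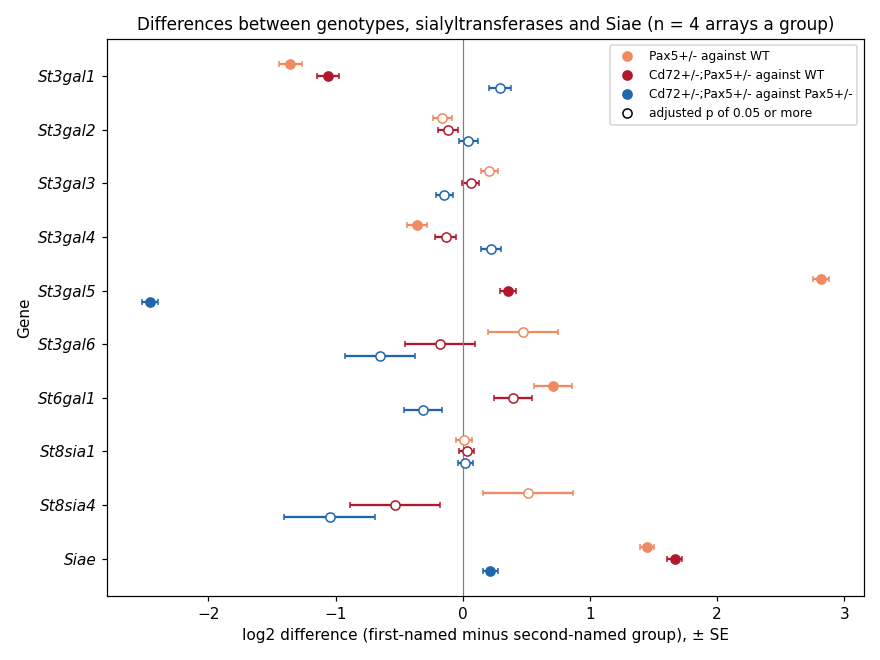
Log2 differences of the 10 genes in the 3 comparisons, first-named minus second-named group, with the SE of the limma fit as bars (n = 4 arrays a group); filled points have an adjusted p under 0.05. St3gal5 lies at 2.82 in Pax5+/- against WT and at -2.46 in Cd72+/-;Pax5+/- against Pax5+/-, and St8sia4 and St3gal6 have the widest bars.

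Promoter windows of St3gal5, St3gal4 and St6gal1, 3 of the 5 genes called in any comparison, are shown to set these enzymes beside each other, as 250 bases before a transcription start (RefSeq, GRCm38.p6), 5′ to 3′ along the gene. RefSeq windows matched 7 of the 10 genes, in 10 windows, and none was matched to St3gal1, St3gal2 or Siae. Capitals mark the GC box, GGGCGG, and the CCAAT box, CCAAT, each on either strand; the matches shown do not overlap each other. St6gal1 has 3 listed starts, and the array values do not say which was used.
St3gal5 (GRCm38.p6, chr6:72097358-72097607, plus strand): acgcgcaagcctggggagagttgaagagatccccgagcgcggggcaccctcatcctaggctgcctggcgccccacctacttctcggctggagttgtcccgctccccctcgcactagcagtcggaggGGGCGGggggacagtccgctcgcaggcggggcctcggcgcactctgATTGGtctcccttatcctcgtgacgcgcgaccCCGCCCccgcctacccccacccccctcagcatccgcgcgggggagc
St3gal4 (GRCm38.p6, chr9:35116865-35117114, minus strand): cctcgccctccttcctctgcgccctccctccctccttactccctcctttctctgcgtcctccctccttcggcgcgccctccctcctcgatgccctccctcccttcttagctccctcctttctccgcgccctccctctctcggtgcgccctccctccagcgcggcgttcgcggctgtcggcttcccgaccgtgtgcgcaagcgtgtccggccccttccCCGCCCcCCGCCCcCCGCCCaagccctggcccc
St6gal1 start 1 (GRCm38.p6, chr16:23224490-23224739, plus strand): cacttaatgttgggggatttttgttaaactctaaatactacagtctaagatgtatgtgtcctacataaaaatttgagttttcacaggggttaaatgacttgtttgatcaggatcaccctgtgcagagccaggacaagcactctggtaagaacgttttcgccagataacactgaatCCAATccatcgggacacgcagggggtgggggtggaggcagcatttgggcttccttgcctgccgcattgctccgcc
St6gal1 start 2 (GRCm38.p6, chr16:23225771-23226020, plus strand): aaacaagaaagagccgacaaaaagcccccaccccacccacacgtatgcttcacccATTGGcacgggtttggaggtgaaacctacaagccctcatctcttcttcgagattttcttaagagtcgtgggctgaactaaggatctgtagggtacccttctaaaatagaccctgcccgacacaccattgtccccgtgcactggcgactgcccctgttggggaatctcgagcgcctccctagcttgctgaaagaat
St6gal1 start 3 (GRCm38.p6, chr16:23290220-23290469, plus strand): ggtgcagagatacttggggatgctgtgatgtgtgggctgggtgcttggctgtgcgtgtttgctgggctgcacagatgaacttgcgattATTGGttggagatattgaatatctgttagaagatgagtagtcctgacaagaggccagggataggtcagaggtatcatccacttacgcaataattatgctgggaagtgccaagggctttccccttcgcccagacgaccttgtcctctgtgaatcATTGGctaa
The St3gal5 window, of a gene that was higher in Pax5+/-, held 2 GC boxes, 1 CCAAT box and 25 CG pairs, and the St3gal4 window, of a gene that was lower, held 3 GC boxes, no CCAAT box and likewise 25 CG pairs. The 3 St6gal1 windows held no GC box, 1, 1 and 2 CCAAT boxes, and 6, 10 and 5 CG pairs. Of 32851 windows of this length in the RefSeq table, 32.7% held a GC box and 33.8% a CCAAT box, and the median number of CG pairs was 6. A match is a description of the letters and not a bound site.

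St3gal5 makes the ganglioside GM3 by adding sialic acid to lactosylceramide, the entry step to most gangliosides. Its signal was 7.64, 7.55, 7.66 and 7.56 on the Cd72+/-;Pax5+/- arrays, 10.17, 10.15, 9.91 and 10.02 on the Pax5+/- arrays, and 7.27, 7.16, 7.32 and 7.23 on the WT arrays. The Pax5+/- arrays were all high, and none of the groups overlapped. In Pax5+/- against WT St3gal5 rose 7.05-fold (log2 difference 2.82, SE 0.0624, limma adjusted p = 5.85e-11). In Cd72+/-;Pax5+/- against WT it rose 1.28-fold (0.36, SE 0.0624, adjusted p = 0.00296). Set against Pax5+/-, the cells with loss in both genes were 5.5-fold lower (-2.46, SE 0.0624, adjusted p = 2.04e-10). The order was Pax5+/-, Cd72+/-;Pax5+/- and WT, and all neighbours differed, although the smallest step, between Cd72+/-;Pax5+/- and WT, lost its call with the closest pairs averaged (adjusted p = 0.0918). Each pair of groups had an exact permutation p of 0.0286 (two-sided), the smallest that 4 arrays against 4 can give.

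Siae had a signal of 7.44, 7.63, 7.62 and 7.53 on the Cd72+/-;Pax5+/- arrays, 7.34, 7.36, 7.25 and 7.40 on the Pax5+/- arrays, and 5.86, 5.80, 5.97 and 5.93 on the WT arrays. All 8 mutant arrays lay above all 4 WT arrays. The WT arrays lay below 7.12, the cutoff of the filter on dim clusters, and Siae passed that filter only through its mutant arrays. How far the WT level of Siae lies above background is unknown. Siae rose 3.17-fold in Cd72+/-;Pax5+/- against WT (1.67, SE 0.0575, adjusted p = 2.01e-09) and 2.73-fold in Pax5+/- against WT (1.45, SE 0.0575, adjusted p = 6.97e-09). The mutant groups differed less from each other, with Siae 1.16-fold higher in Cd72+/-;Pax5+/- than in Pax5+/- (0.22, SE 0.0575, adjusted p = 0.0308). That last call was lost when the closest pairs were averaged (adjusted p = 0.255), when the WT and Pax5+/- pairs with higher stromal markers were left out (adjusted p = 0.106), and without Cd72+/-;Pax5+/- replicate 2, 3 or 4 or Pax5+/- replicate 1, 2 or 3 (adjusted p = 0.054 to 0.0985).

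St3gal1 sialylates the simplest galactose-bearing O-glycans, those carried by mucin-like proteins such as Spn. It read 8.10, 7.83, 7.97 and 8.09 on the Cd72+/-;Pax5+/- arrays, 7.54, 7.84, 7.71 and 7.72 on the Pax5+/- arrays, and 8.84, 9.17, 9.07 and 9.15 on the WT arrays. Both mutant groups lay below WT on every array. St3gal1 was 2.08-fold lower in Cd72+/-;Pax5+/- than in WT (-1.06, SE 0.0881, adjusted p = 6.63e-06) and 2.56-fold lower in Pax5+/- than in WT (-1.35, SE 0.0881, adjusted p = 6.45e-07). Between Cd72+/-;Pax5+/- and Pax5+/- the difference of 0.29 did not pass (95% interval 0.10 to 0.49, adjusted p = 0.0546), and a single array of each group overlapped. It passed in 7 of 22 alternatives (adjusted p = 0.0277 to 0.0459), among them quantile normalization and the fit of these groups alone. The second St3gal1 cluster did not share the pattern of the first. Its means were 7.77 ± 0.108 in Cd72+/-;Pax5+/-, 7.78 ± 0.0622 in Pax5+/- and 7.76 ± 0.044 in WT (SD, n = 4), with differences from WT of 0.01 and 0.02. With the mean of both clusters St3gal1 remained called in each comparison with WT, at -0.53 for Cd72+/-;Pax5+/- and -0.67 for Pax5+/-.

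The other St3gal enzymes moved less or not at all past the test. St3gal4, which caps N-acetyllactosamine chains and helps build selectin ligands, read 8.38, 8.20, 8.40 and 8.45 in Cd72+/-;Pax5+/-, 8.32, 8.03, 8.13 and 8.06 in Pax5+/- and 8.44, 8.58, 8.35 and 8.60 in WT. Its fall of 0.36 in Pax5+/- against WT passed (SE 0.08, adjusted p = 0.0146, 1.28-fold lower), with no overlap between the groups, and was lost on averaging the closest pairs (adjusted p = 0.338) and without Pax5+/- replicate 2 (adjusted p = 0.0526). Cd72+/-;Pax5+/- arrays lay between, at -0.14 from WT (adjusted p = 0.406) and 0.22 from Pax5+/- (adjusted p = 0.111). St3gal2, an enzyme of O-glycans and gangliosides, averaged 7.94 ± 0.048 in Cd72+/-;Pax5+/-, 7.89 ± 0.0735 in Pax5+/- and 8.05 ± 0.174 in WT, and none of its differences passed (adjusted p = 0.298 to 0.804). For the difference between Pax5+/- and WT of St3gal2, -0.16, the 95% interval ran from -0.33 to 0.01. St3gal3, an enzyme of N-glycans, averaged 8.88 ± 0.031, 9.02 ± 0.142 and 8.81 ± 0.0827 in the same order. The Pax5+/- arrays of St3gal3 all lay above the WT arrays, by 0.21 on average, and this did not pass (95% interval 0.06 to 0.35, adjusted p = 0.0977).

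St6gal1, the enzyme of the Cd22 ligand, read 9.42, 9.39, 9.48 and 9.47 in Cd72+/-;Pax5+/-, 9.50, 9.93, 9.60 and 9.98 in Pax5+/- and 9.40, 8.76, 9.26 and 8.76 in WT. It was 1.63-fold higher in Pax5+/- than in WT (0.71, SE 0.148, adjusted p = 0.00948), with no overlap. The closest pairs of arrays had means of 9.55 and 9.96 in Pax5+/- and of 9.33 and 8.76 in WT. The call was lost on averaging the closest pairs (adjusted p = 0.382) and with only Pax5+/- and WT in the fit (adjusted p = 0.0567). In Cd72+/-;Pax5+/- St6gal1 lay 0.40 above WT (95% interval 0.07 to 0.72, adjusted p = 0.148) and 0.31 below Pax5+/- (-0.31, 95% interval -0.63 to 0.01, adjusted p = 0.241), and neither passed.

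St8sia4 makes polysialic acid, long chains of sialic acid known from the neural cell adhesion molecule. It read 8.87, 9.04, 9.00 and 9.14 in Cd72+/-;Pax5+/-, 10.10, 9.94, 10.17 and 10.03 in Pax5+/- and 10.41, 8.65, 10.41 and 8.72 in WT. WT replicates 1 and 3 lay above every mutant array, and WT replicates 2 and 4 lay below every mutant array. St3gal6, which like St3gal4 takes part in selectin ligands, read 8.91, 9.08, 9.06 and 9.12 in Cd72+/-;Pax5+/-, 9.80, 9.69, 9.66 and 9.63 in Pax5+/- and 9.91, 8.58, 9.87 and 8.52 in WT, and divided the WT arrays the same way. Neither gene passed against WT, where the 95% intervals of St8sia4 ran from -1.30 to 0.23 for Cd72+/-;Pax5+/- and from -0.26 to 1.28 for Pax5+/-. Cd72+/-;Pax5+/- and Pax5+/- arrays did not overlap for either gene. St8sia4 lay 2.07-fold lower in Cd72+/-;Pax5+/- (-1.05, SE 0.354, adjusted p = 0.0887) and St3gal6 1.57-fold lower (-0.65, SE 0.276, adjusted p = 0.182). With WT left out of the fit, and with it the spread between the WT pairs, both passed (adjusted p = 5.91e-06 for St8sia4 and adjusted p = 5.78e-05 for St3gal6), and they did not with the closest pairs averaged (adjusted p = 0.592 and adjusted p = 0.683). Of 22 alternatives, St8sia4 passed between the mutants in 6 (adjusted p = 3.51e-06 to 0.0485) and St3gal6 in 2 (adjusted p = 5.56e-05 to 5.78e-05). St8sia1, which makes the ganglioside GD3 from GM3, showed no difference past the test, with 6.29 ± 0.105 in Cd72+/-;Pax5+/-, 6.26 ± 0.0714 in Pax5+/- and 6.25 ± 0.0686 in WT. Over the 3 comparisons the 95% intervals of St8sia1 reached from -0.12 at the lowest to 0.16 at the highest. St8sia1 is also the member that did not pass the filter on dim clusters.

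**Figure D3:**
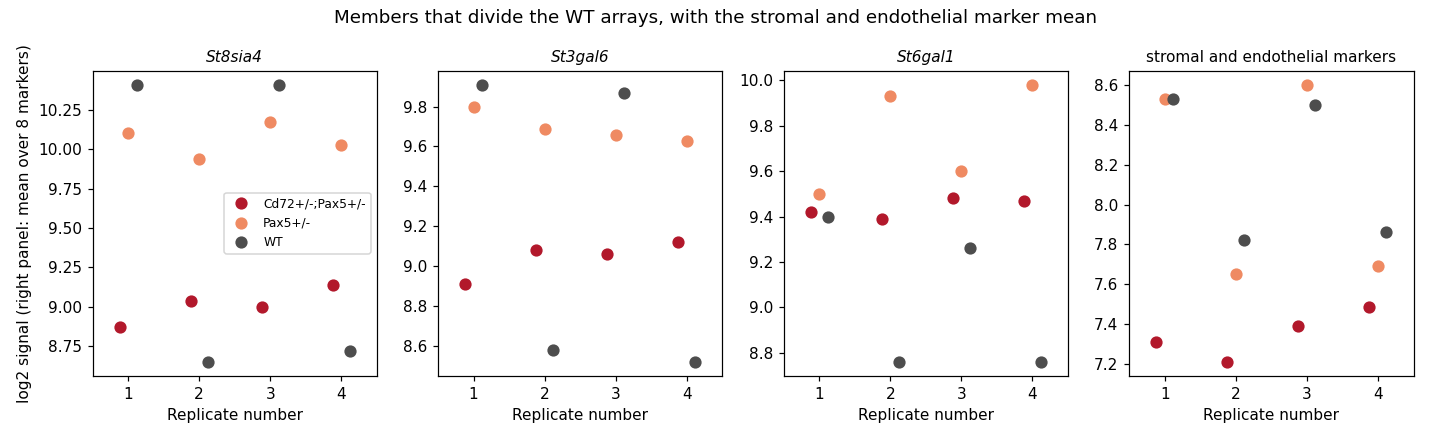
Log2 signal by replicate number for St8sia4, St3gal6 and St6gal1, and at the right the mean log2 signal of 8 stromal and endothelial markers; a shared number links no arrays between groups. WT replicates 1 and 3 are high for all 4 measures, and Pax5+/- replicates 1 and 3 are high for the marker mean and low for St6gal1.

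The stromal and endothelial markers were among those that moved with this division in WT. Their mean was 7.21 to 7.49 on the Cd72+/-;Pax5+/- arrays. On the Pax5+/- arrays it read 8.53, 7.65, 8.60 and 7.69, and on the WT arrays 8.53, 7.82, 8.50 and 7.86, by replicate number. Of the 8 markers none passed in Pax5+/- against WT, Sparc and Cxcl12 fell in Cd72+/-;Pax5+/- against WT, and Cxcl12 also fell in Cd72+/-;Pax5+/- against Pax5+/-. The endothelial genes Kdr, Emcn and Cdh5 read 5.01 to 6.65 over all arrays, and Pecam1 read 9.71 to 9.79 in Cd72+/-;Pax5+/-, 10.24 to 10.56 in Pax5+/- and 9.24 to 10.44 in WT, and these 4 passed in no comparison. The part of these cells in the levels of St8sia4, St3gal6 and St6gal1 was not tested. Within WT, replicates 1 and 3 exceeded replicates 2 and 4 by 1.73 for St8sia4, 1.34 for St3gal6 and 0.57 for St6gal1. Within Pax5+/-, where the marker mean was also divided, the same difference was 0.15 for St8sia4, 0.07 for St3gal6 and -0.41 for St6gal1. St3gal5 and Siae differed between the WT pairs by 0.10 and 0.05. Other marker means also divided WT, by replicate number. That of the pro-B and pre-B markers read 11.4, 10.56, 11.39 and 10.52 in WT. It was 11.04 to 11.15 in Pax5+/- and 10.79 to 10.97 in Cd72+/-;Pax5+/-. The granulocyte and monocyte mean read 6.42, 6.12, 6.41 and 6.15 in WT. The plasma cell mean went the other way, at 7.83, 8.04, 7.89 and 8.025. The T-cell and erythroid means did not divide WT this way. The part of these cells was not tested.

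Around the sialyltransferases, the enzymes and carriers of the pathway were described from 6 lists. Of 8 genes that make, activate, modify or transport sialic acid, Cmah, Renbp and Slc35a1 rose and Casd1 fell in Pax5+/- against WT, Slc35a1 rose and Casd1 fell in the combined heterozygotes against WT, and Cmah, Renbp and Cmas fell in the combined heterozygotes against Pax5+/-. None of these calls held with the closest pairs averaged. Cmah, which turns the N-acetyl into the N-glycolyl form of sialic acid, read 7.96, 8.02, 7.99 and 7.96 in Cd72+/-;Pax5+/-, 9.27, 9.90, 9.29 and 9.96 in Pax5+/- and 7.94, 6.80, 8.02 and 6.93 in WT. Only the Pax5+/- arrays stood clear of the others. Cmah rose by 2.18 in Pax5+/- against WT (SE 0.264, adjusted p = 0.000159) and fell by 1.62 in the combined heterozygotes against Pax5+/- (adjusted p = 0.00139), and both calls were lost on averaging the closest pairs (adjusted p = 0.112 and adjusted p = 0.192). Gne, the first enzyme of sialic acid synthesis, averaged 8.85 ± 0.0472 in Cd72+/-;Pax5+/-, 8.82 ± 0.0876 in Pax5+/- and 8.94 ± 0.218 in WT and did not pass. The median difference over the 8 genes was 0.12, -0.07 and -0.04, beside -0.005, 0.002 and 0.005 over all clusters. The shares called over all clusters were 7.47%, 7.78% and 9.79% in the same order.

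Casd1 adds the O-acetyl groups that Siae removes. It read 7.38, 7.31, 7.62 and 7.65 in Cd72+/-;Pax5+/-, 7.43, 7.15, 7.08 and 6.97 in Pax5+/- and 8.45, 7.81, 8.39 and 7.87 in WT. Both mutant groups lay below WT with no overlap, the reverse of Siae. Set against WT, Casd1 fell by 0.64 in the combined heterozygotes (SE 0.152, adjusted p = 0.0214) and by 0.97 in Pax5+/- (SE 0.152, adjusted p = 0.00124). With the closest pairs averaged both calls of Casd1 ended (adjusted p = 0.409 and adjusted p = 0.177), while those of Siae against WT held (adjusted p = 0.00175 and adjusted p = 0.00217). Slc35a1, the transporter that brings activated sialic acid into the Golgi, rose by 0.43 in Cd72+/-;Pax5+/- and by 0.49 in Pax5+/- against WT (adjusted p = 0.00223 and adjusted p = 0.000737, and adjusted p = 0.0802 and adjusted p = 0.0561 with the closest pairs averaged).

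**Figure D4:**
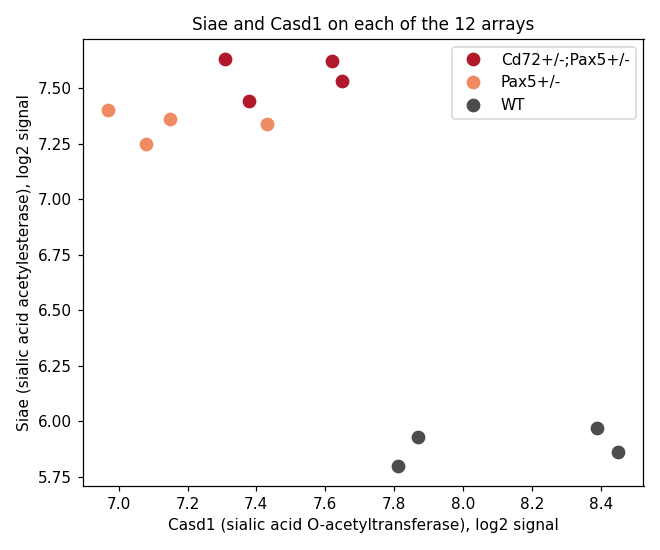
Log2 signal of Siae, the acetylesterase, against that of Casd1, the O-acetyltransferase, on each of the 12 arrays, coloured by genotype. The 8 mutant arrays have Siae of 7.25 to 7.63 with Casd1 of 6.97 to 7.65, and the 4 WT arrays have Siae of 5.80 to 5.97 with Casd1 of 7.81 to 8.45.

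Of 9 Siglecs that read these sugars, only Cd22 and Cd33 passed in any comparison. Higher were 2 in Pax5+/- against WT and 1 in the combined heterozygotes against WT, and between the mutants 1 was higher and 1 lower. Over all clusters 7.47%, 7.78% and 9.79% were called in these comparisons. The median difference over the 9 Siglecs was 0.08, 0.03 and 0.05 in the same order, beside -0.005, 0.002 and 0.005 over all clusters. Cd22 read 8.54, 8.37, 8.43 and 8.38 in Cd72+/-;Pax5+/-, 7.94, 8.03, 7.82 and 8.05 in Pax5+/- and 7.53, 7.56, 7.58 and 7.62 in WT, in 3 groups without overlap. Set against WT it rose by 0.86 in the combined heterozygotes (adjusted p = 1.16e-06) and by 0.39 in Pax5+/- (adjusted p = 0.000918), and between the mutants it was higher by 0.47 in the combined heterozygotes (adjusted p = 0.000157). The first of these kept its call with the closest pairs averaged (adjusted p = 0.0163), and the others did not (adjusted p = 0.122 and adjusted p = 0.0583). Cd33 rose by 0.92 in Pax5+/- against WT and fell by 0.91 in the combined heterozygotes against Pax5+/-, and neither call held with the pairs averaged (adjusted p = 0.292 and adjusted p = 0.245). Siglecg, an inhibitory Siglec of B cells, averaged 8.79 ± 0.0606 in Cd72+/-;Pax5+/-, 8.50 ± 0.0957 in Pax5+/- and 8.94 ± 0.408 in WT and did not pass.

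Of 8 genes of sialic acid removal and breakdown, Slc17a5, the lysosomal exporter of sialic acid, rose and Ctsa, the protective protein of the sialidase Neu1, fell in each mutant against WT. Slc17a5 rose by 0.30 in Cd72+/-;Pax5+/- and by 0.58 in Pax5+/- (adjusted p = 0.00946 and adjusted p = 5.35e-05), and fell by 0.28 in the combined heterozygotes against Pax5+/-. Ctsa fell by 0.34 in Cd72+/-;Pax5+/- and by 0.27 in Pax5+/- against WT. Of these calls only that of Slc17a5 in Pax5+/- against WT held with the closest pairs averaged (adjusted p = 0.0298). The median difference over these 8 genes was 0.07 in Pax5+/- against WT, 0.02 in the combined heterozygotes against WT and -0.03 between the mutants. In that order 7.47%, 7.78% and 9.79% of all clusters were called. The sialidases Neu1 and Neu3 did not pass in any comparison (adjusted p = 0.324 to 0.882). Among 11 sialyltransferases outside the 10 genes, St6galnac3, an enzyme of gangliosides and O-glycans, fell by 0.33 in Cd72+/-;Pax5+/- and by 0.30 in Pax5+/- against WT and none other passed, with list medians of -0.05 in the combined heterozygotes and -0.005 in Pax5+/-. Both St6galnac3 calls were lost on averaging the closest pairs (adjusted p = 0.32 and adjusted p = 0.383), and they were made in 13 and 12 of 20 alternatives. St6galnac3 did not pass the filter on dim clusters. St6galnac5 averaged 5.78 ± 0.0802 in Cd72+/-;Pax5+/-, 5.79 ± 0.148 in Pax5+/- and 6.22 ± 0.41 in WT.

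**Figure D5:**
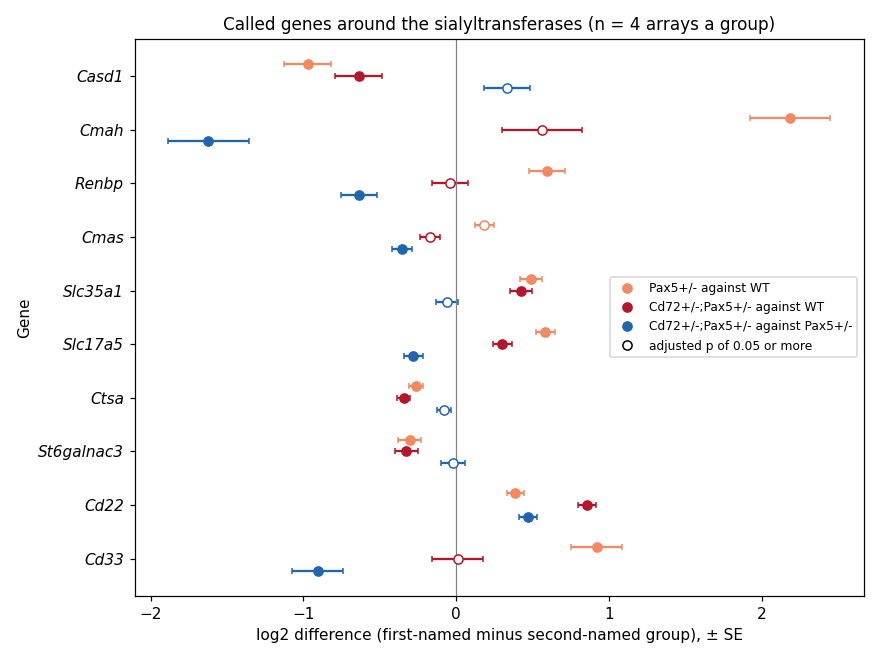
Log2 differences of 10 called genes of sialic acid metabolism and recognition, first-named minus second-named group, with the SE of the limma fit as bars (n = 4 arrays a group); filled points have an adjusted p under 0.05. Casd1 is negative and Cd22 positive in both comparisons with WT, and Cmah lies at 2.18 in Pax5+/- against WT.

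Enzymes that build or modify the chains that carry sialic acid were measured for 24 of 26 listed genes. Their median difference was -0.04 in Pax5+/- against WT, -0.05 in the combined heterozygotes against WT and -0.04 between the mutants. Beside the calls that follow, 7.47%, 7.78% and 9.79% of all clusters were called in these comparisons. In Pax5+/- against WT B4galt3 and B4galt4 rose and Ugcg fell. In the combined heterozygotes against WT B4galt3, B4galt4 and Fut4 rose and Ugcg, Gcnt1, B3gnt5 and Fut8 fell, and in the combined heterozygotes against Pax5+/- Fut4 rose and Gcnt1, B3gnt5, Mgat5, Fut8 and Ugcg fell. With the closest pairs averaged, Ugcg and Gcnt1 against WT and Gcnt1 and B3gnt5 between the mutants kept these calls, and the others were lost. Between the mutants the loss took in Ugcg (adjusted p = 0.39), Mgat5 (adjusted p = 0.436), Fut8 (adjusted p = 0.268) and Fut4 (adjusted p = 0.0532), and Ugcg was called there in 8 of 21 alternatives. Ugcg makes the glucosylceramide from which lactosylceramide, the substrate of St3gal5, is built. It averaged 9.28 ± 0.0424 in Cd72+/-;Pax5+/-, 9.46 ± 0.0804 in Pax5+/- and 9.98 ± 0.0544 in WT, a fall of 0.70 and of 0.52 against WT (adjusted p = 1.82e-06 and adjusted p = 2.21e-05). Gcnt1, which branches the O-glycans that St3gal1 would cap, fell by 0.61 in the combined heterozygotes against WT and fell by 0.70 against Pax5+/-. It read 5.75 to 6.56 over all arrays, and like Fut4 and B4galt4 it did not pass the filter on dim clusters. B4galt1 averaged 10.04 ± 0.101, 10.18 ± 0.205 and 10.3 ± 0.161 in Cd72+/-;Pax5+/-, Pax5+/- and WT and did not pass.

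Of 10 measured carriers of sialylated chains, Cd44, the hyaluronan receptor, rose by 0.77 in the combined heterozygotes and fell by 2.07 in Pax5+/- against WT, and differed by 2.84 between Cd72+/-;Pax5+/- and Pax5+/- (adjusted p = 3.91e-05, adjusted p = 4.85e-09 and adjusted p = 2.63e-10). Its levels were 8.77, 8.69, 8.82 and 8.86 in Cd72+/-;Pax5+/-, 6.09, 5.96, 6.05 and 5.68 in Pax5+/- and 8.00, 7.99, 8.08 and 7.99 in WT. Cd44 was thus lowest in Pax5+/-, where St3gal5 was highest. The reverse did not hold, since Cd44 was highest in Cd72+/-;Pax5+/- and St3gal5 was lowest in WT. A link between these genes was not tested. In Pax5+/- against WT Cd24a, a mucin-like surface protein, also rose by 0.75 and the chemokine receptor Ccr7 fell by 0.89. In the combined heterozygotes against Pax5+/- Ccr7 rose by 0.64, and Cd24a and the phosphatase Ptprc fell by 0.93 and by 0.27. With the closest pairs averaged the calls of Cd44 held, and those of Ccr7, Cd24a and Ptprc were lost between the mutants (adjusted p = 0.133, adjusted p = 0.249 and adjusted p = 0.444), as were those of Ccr7 and Cd24a in Pax5+/- against WT (adjusted p = 0.0682 and adjusted p = 0.448). Over the 10 carriers the median difference was -0.02 in Pax5+/- against WT, -0.14 in the combined heterozygotes against WT and -0.05 between the mutants. The shares of all clusters called were 7.47%, 7.78% and 9.79% in the same order. Spn and Selplg, mucin-like proteins of leukocytes, did not pass in any comparison.

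The genes whose pattern was most like that of St3gal5 over the 12 arrays were the peptide transporter Slc15a2, Frmd4b and the prolyl hydroxylase Egln3, with Pearson r of 0.993, 0.993 and 0.992. For Siae they were the microtubule linker Hook1, the potassium channel Kcnk6 and Rps6kc1, with r of 0.989, 0.987 and 0.985. For St3gal1 they were the ubiquitin-conjugating enzyme Ube2j1, the alkaline phosphatase Alpl and the auxilin Dnajc6, with r of 0.977, 0.968 and 0.965. The arrays fall into 3 genotypes and closest pairs, so these r describe shared group levels. Frmd4b averaged 6.27 in Cd72+/-;Pax5+/-, 9.16 in Pax5+/- and 6.08 in WT, and Hook1 8.76, 8.54 and 6.00 in the same order.

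The part of the cells behind the following markers in the results above was not tested. Of 12 pro-B and pre-B markers, Ebf1 rose by 0.315 and Cd79a fell by 0.33 in Pax5+/- against WT. In the combined heterozygotes against WT Ebf1 rose by 0.25 and Dntt fell by 2.34. In the combined heterozygotes against Pax5+/- Cd79a rose by 0.30 and Dntt fell by 2.12. Over all clusters 7.47%, 7.78% and 9.79% were called in these comparisons. Dntt read 8.29 to 8.85 in Cd72+/-;Pax5+/-, 10.54 to 10.82 in Pax5+/- and 9.76 to 11.93 in WT. Of 10 granulocyte and monocyte markers Itgam rose in Pax5+/- against WT, of 5 erythroid markers Tfrc fell in each mutant against WT, and of 7 T-cell markers Zap70 fell in the combined heterozygotes against Pax5+/-. Of 6 plasma cell markers 4 were called in Pax5+/- against WT, beside 7.47% of all clusters, where Sdc1 rose and Xbp1, Mzb1 and Derl3 fell. Of the same 6, none passed in the combined heterozygotes against WT, and 4 were called in the combined heterozygotes against Pax5+/-, beside 9.79% of all clusters, where Mzb1 and Derl3 rose and Sdc1 and Jchain fell. The mean of the plasma cell markers was 7.78 to 7.83 in Cd72+/-;Pax5+/-, 7.71 to 7.97 in Pax5+/- and 7.83 to 8.04 in WT. The mean of the granulocyte and monocyte markers was 6.31 to 6.33 in Cd72+/-;Pax5+/-, 6.28 to 6.34 in Pax5+/- and 6.12 to 6.42 in WT, and that of the T-cell markers 5.99 to 6.15, 6.07 to 6.16 and 6.08 to 6.15 in the same order.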

How the data were processed

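Each table value is a log2 signal per transcript cluster, deposited by the authors for 28944 clusters on 12 arrays. Per the labels the RNA was extracted with TRIzol and the targets were labelled with biotin, and per the submitters' processing notes and design text the arrays were analysed with the Transcriptome Analysis Console 4.0.3. The sources used here do not give the background correction, normalization or summarization. Values ran from 3.67 to 14.73 with array medians of 6.91 to 7.005.

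Clusters were named from the platform annotation, where 21789 carry 1 symbol, 1621 several and 5534 none. The 23410 with a symbol were fitted with limma 3.58.1 in R 4.3.3, with a mean per group over all 12 arrays, 9 residual and 3.28 prior degrees of freedom, no filter and no second normalization. Standard errors and 95% intervals are those of the fit, and p-values were adjusted over all 23410 clusters. Exact permutation tests are two-sided over arrays. The fit was also run on simulated data with independent arrays. These held no close pairs, so that run cannot show how the fit behaves with such pairs. Groups were taken from the source labels.

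The members and the 6 pathway and 6 marker lists were chosen with earlier results of these data known. Named were all members, Pax5 and Cd72, in each list up to 6 called genes per comparison and up to 2 not called, and the 3 genes most alike in Pearson r to the 3 members with the widest range of group means. Marker genes, Xist, Uty and genes of the lists beyond this rule were named after their values were seen. Some listed genes are not reported here. Alternatives were quantile normalization, a common array median, a filter keeping clusters above 7.12 on at least 4 arrays, all clusters, array weights, a fit of the compared groups alone, a robust prior with a trend, closest pairs averaged, the pairs with higher stromal markers left out, each array left out, the mean of a gene's clusters, and other thresholds. Promoter windows are from the RefSeq table of GRCm38.p6, and Python 3.11.15 with matplotlib 3.10.9 and pandas 2.3.3 drew the figures.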

Additional observations from a re-analysis of the deposited data

Results flagged for a closer look

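In 7 of 135 groups of 4 arrays, over 45 named genes, 1 array lay far from the other 3 by Dixon's criterion, and chance gives about 1 in 20. None of these arrays concerned one of the 9 sialyltransferases, Siae, Pax5 or Cd72. Among Cd72+/-;Pax5+/- arrays, replicate 1 was low for Slc35a1 at 7.02, with the others at 7.22 to 7.25, and low for Fut8 at 10.17, with the others at 10.28 to 10.3. Replicate 2 of that group was high for St6galnac3 at 5.76, with the others at 5.56 to 5.59, and replicate 3 was high for Neu1 at 8.44, with the others at 8.31 to 8.33. Pax5+/- replicate 1 was high for Selplg at 10.43, with the others at 10.23 to 10.26. In WT, replicate 4 was high for B4galt3 at 8.04, with the others at 7.86 to 7.87, and replicate 3 was high for Cd44 at 8.08, with the others at 7.99 to 8.00.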

How the results depend on the processing

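No paired analysis was possible because the labels give no number shared between groups. St3gal5 and Siae in Pax5+/- against WT, St3gal1 and Siae in Cd72+/-;Pax5+/- against WT, St3gal1 in Pax5+/- against WT and St3gal5 in Cd72+/-;Pax5+/- against Pax5+/- kept their calls in all 22 alternatives. With Pax5+/- against WT as the first comparison, the combined heterozygotes against WT as the second and the mutants against each other as the third, the members called were 5, 3 and 2 and the clusters called 1749, 1821 and 2292. With the closest pairs averaged 3 members and 282 clusters, 2 members and 290 clusters, and 1 member and 420 clusters were called. Averaging leaves 2 values a group and so fewer degrees of freedom. Without the WT and Pax5+/- pairs with higher stromal markers 8, 8 and 6 members and 5359, 4427 and 4757 clusters were called; this leaves a single closest pair in each of those groups, which by construction narrows the spread. At the study's threshold, with an unadjusted p, 3 members passed in the first comparison and 224, 214 and 280 clusters in all. In the third comparison 4 members and 3240 clusters were called at an adjusted p under 0.1. With only the 2 groups in the fit 5 members and 3362 clusters were called there, and with array weights 4 members and 3098 clusters. More of all clusters were thus called in these settings too. Array weights gave 2787 clusters in the second comparison. With each array left out in turn, members called ranged from 4 to 5, were 3 each time, and ranged from 1 to 4, and clusters from 1338 to 1959, 1257 to 2052 and 1667 to 2469. In the third comparison the count was 1 without Pax5+/- replicate 3 or Cd72+/-;Pax5+/- replicate 3 or 4, and 4 without WT replicate 1.

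Reversed signs concerned differences that had not passed. Without the pairs with higher stromal markers, St3gal6 and St8sia4 in Cd72+/-;Pax5+/- against WT turned to 0.49 and 0.33 and passed, St3gal3 turned to -0.002, and St8sia1 in Cd72+/-;Pax5+/- against Pax5+/- turned to -0.01. St8sia1 in Pax5+/- against WT turned to -0.013 with a common array median. With an array left out, St8sia1 ranged from -0.008 to 0.045, -0.022 to 0.062 and -0.032 to 0.045, and St3gal6 in Cd72+/-;Pax5+/- against WT from -0.411 to 0.052, above 0 without WT replicate 1 or 3. The cause was not tested. Of 45 calls of pathway genes, 10 held with the closest pairs averaged, and none reversed in any alternative. No detection values were used, so how far dim genes such as St8sia1, or Siae in WT, lie above background is unknown.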
